A study of Mus musculus with 20 samples.

Results

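Gene expression in tissue that the study described as terminal ileum was examined for the effect of a tryptophan (Trp)-deficient diet. The comparison used the 10 of 20 mice of the study that received no antibiotics. Of these, 5 were fed the control diet (CD), an amino acid diet with 0.2% Trp, and 5 were fed the same diet without Trp (TDD). All were female C57BL/6 mice, wild type as far as the labels say, kept specific pathogen-free (SPF), aged 7 weeks at the start and fed for 3 weeks. The remaining 10 mice received the same diets with a cocktail of ampicillin, vancomycin, gentamycin, metronidazole and neomycin (ABX) and enter here through the shared estimate of the spread and as a point of reference for single genes. The samples were whole pieces of ileal wall of 0.5 cm, cut 2 cm from the cecum, so that epithelium, lamina propria, lymphoid follicles and muscle were sequenced together. Diet groups were taken from the sample titles, and nothing in the labels says how the mice were caged, so p-values measure the spread between these mice.

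Trp is an essential amino acid that the host uses for protein synthesis, for serotonin and for the kynurenine pathway, through which NAD can be made. Gut bacteria convert it to indoles that act on the aryl hydrocarbon receptor of epithelial and immune cells. The ileum absorbs bile acids and answers them through the nuclear receptor FXR, keeps a defensive epithelium of Paneth, goblet and tuft cells, and holds IgA plasma cells and intraepithelial lymphocytes.

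Total estimated counts ranged from 36676963 to 50751245 in CD mice and from 37664356 to 58618713 in TDD mice. At this depth, 3 counts correspond to 0.0512 to 0.0818 CPM (counts scaled to a library of 1000000). Markers of the ileum were not all present. Fabp6 and Slc10a2, which encode the bile acid binding protein and bile acid carrier of the ileal enterocyte, reached only 0.319 to 2.42 and 1.38 to 3.89 CPM in CD mice and 0.238 to 3.91 and 3.69 to 8.80 CPM in TDD mice, whereas Slc51a, the basolateral bile acid carrier, was at 158 to 209.9 and 123 to 237 CPM. Lct and Gata4, best known from more proximal small bowel, were at 1657 to 3125 and 75.1 to 118 CPM in CD mice and 1669 to 2426 and 89.0 to 109 CPM in TDD mice. From these markers the pieces cannot be placed with certainty in the terminal ileum, and their site was not tested. The summed markers of each cell type differed between single mice of the same diet. The marker set for ileal enterocytes (Fabp6, Slc10a2, Fgf15, Apoa1, Vil1, Alpi and Slc51a) summed to 7287 CPM in CD mouse 2. It summed to 12854 to 15638 CPM in the other CD mice and 11639 to 15031 CPM in TDD mice. Fabp6, Slc10a2, Fgf15 and Slc51a were a small part of these sums. The sums therefore follow mostly Apoa1, Vil1 and Alpi and do not measure enterocytes of the ileum in particular. Villus tip genes of CD mouse 2 summed to 2873 CPM, against 9745 to 15345 CPM in TDD mice. Its smooth muscle markers, at 1652 CPM, were the highest of the 10 mice. B cell markers (Ms4a1, Cd79a, Cd79b, Cr2 and Fcer2a) summed to 6.17, 54.0, 77.8, 5.55 and 4.67 CPM in CD mice 1 to 5 and to 5.04, 80.1, 53.5, 119 and 91.8 CPM in TDD mice 1 to 5. CD mice 1, 4 and 5 and TDD mouse 1 therefore had few B cell transcripts. Markers of the exocrine pancreas (Prss2, Cela2a, Cpa1 and Pnlip) summed to 0.716, 0.465, 0.479, 0.298 and 103 CPM in CD mice and to at most 0.459 CPM in TDD mice, the level in CD mouse 5 standing far above all others. The same mouse had the highest cytotoxic lymphocyte markers and the lowest smooth muscle markers of the 10. The liver transcript Alb was at 14.9 and 11.01 CPM in TDD mice 4 and 5 and at most at 0.140 CPM in the other SPF mice. The part of these differences in the results that follow was not tested beyond the values given with each result.

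**Figure D1:**
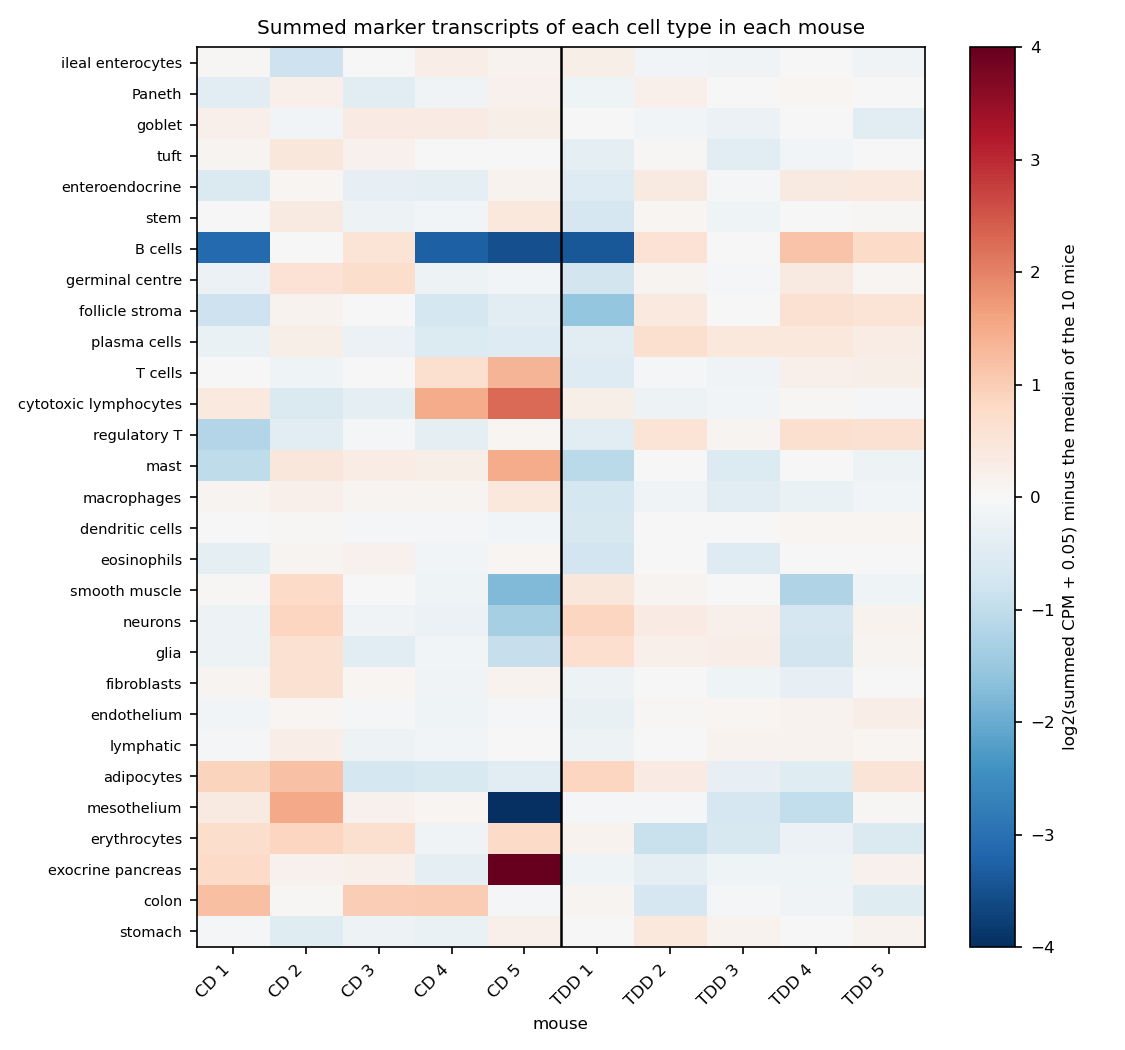
Summed transcripts of the marker genes of each cell type (rows) in the 5 CD mice and the 5 TDD mice (columns), as log2(summed CPM + 0.05) minus the median of the 10 mice, with colours limited at -4 and 4 and neutrophils left out because no marker was tested. CD mice 1, 4 and 5 and TDD mouse 1 are low in B cell markers, and CD mouse 5 is high in pancreas markers and low in mesothelium and smooth muscle markers.

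TDD feeding altered a limited set of genes strongly and many genes slightly. Calls required an at least 2-fold difference and a q under 0.05, where q is the p-value of edgeR's quasi-likelihood test adjusted after Benjamini and Hochberg over all genes tested. These are the thresholds of the study. Of 16306 genes tested, 298 (1.83%) were called, of which 136 (0.834%) were higher and 162 (0.993%) lower on TDD. Without the fold limit, 1085 genes (6.65%) rose and 1257 (7.71%) fell, 14.4% in all, and the median log2 fold change over all genes was 0.01. These shares stand beside every list count at q under 0.05 given below. The 5 CD mice and 5 TDD mice did not overlap in CPM for 1562 genes (9.58%, with 4.68% higher and 4.9% lower on TDD), of which 171 were among the 298 called. Of the 298 calls, 160 held in each of the 10 fits that left out 1 mouse (hereafter the 10 fits). Where a value stands before q in parentheses, it is the log2 fold change of TDD against CD. Without CD mouse 5, 101 of the calls were lost, including all 7 called genes of the exocrine pancreas list. Of the 298, 112 were still called without CD mice 1, 4 and 5 and TDD mouse 1, and 128 without CD mouse 5, TDD mice 4 and 5 and CD+ABX mice 1 and 2, the libraries with pancreas or liver transcripts. Both fits rest on fewer mice, and with the B cell marker level as a covariate 205 were called. In bulk tissue, fewer cells of a type and less RNA per cell cannot be told apart.

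**Figure D2:**
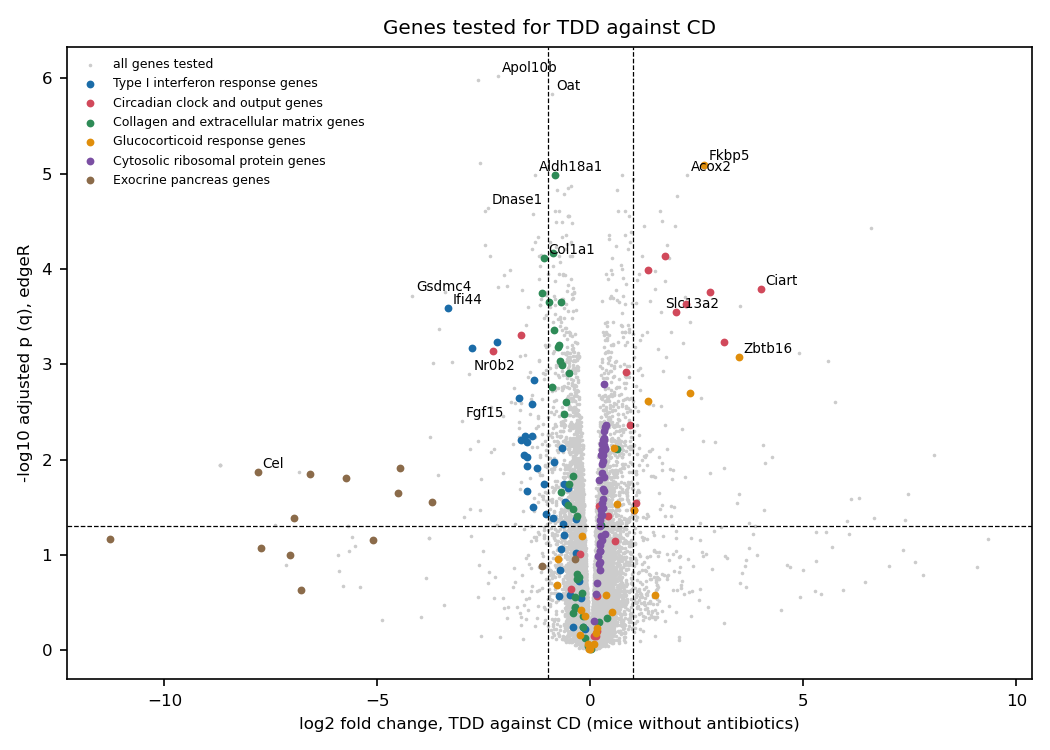
Log2 fold change of TDD against CD (x axis) and -log10 of edgeR's q (y axis) for the 16306 genes tested, with members of 6 gene lists in colour and thresholds of q = 0.05 and 2-fold as dashed lines. Interferon and collagen genes lie to the left, clock and glucocorticoid genes to the right, and ribosomal protein genes in a narrow band right of 0, while the pancreas genes at the far left rest on CD mouse 5.

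The bile acid-responsive genes Fgf15 and Nr0b2 fell, and every TDD mouse lay below the CD range of both. FXR, activated by bile acids in the enterocyte, induces the hormone gene Fgf15, which represses bile acid synthesis in the liver, and Nr0b2, which encodes the repressor SHP. Fgf15 (ENSMUSG00000031073.6, chromosome 7, 144896531 to 144900953 of GRCm38) was at 44.7, 92.4, 90.2, 92.9 and 48.8 CPM in CD mice and at 11.9, 8.66, 13.5, 4.32 and 6.90 CPM in TDD mice. Every TDD mouse lay below every CD mouse, and the mean fell 8.14-fold (log2 fold change -3.03, standard error 0.63, q = 0.00392, edgeR). Nr0b2 was at 4.82, 3.12, 4.23, 6.77 and 6.34 CPM in CD mice and at 0.226, 1.44, 0.373, 0.248 and 1.16 CPM in TDD mice, again without overlap (log2 fold change -2.85, q = 0.00127). Both calls held whichever mouse was left out. With ABX, the diet changed Fgf15 by 0.24 and Nr0b2 by -0.35 on the log2 scale, and the difference between the settings did not pass the test (interaction q = 0.166 and 0.204, edgeR). Of the 12 tested genes of bile acid uptake and FXR, these 2 were called, Abcc2, chosen for mention after its values were seen, rose by 0.69, and the list's median was 0.07, beside 0.01 over all genes. The bile acid carrier Slc10a2 was at 2.36 ± 1.02 CPM with CD and 5.89 ± 1.98 CPM with TDD (SD, n = 5) and did not pass (log2 fold change 1.32, q = 0.0679). Without the libraries with pancreas or liver transcripts, Fgf15 changed by -2.83 and was not past the threshold (q = 0.0805), and without the 4 mice low in B cell transcripts Nr0b2 changed by -2.17 (q = 0.0701).

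Transporters of the brush border moved in both directions. Of 30 tested ion, water and acid-base transporters, 9 rose and 2 fell at q under 0.05, against 6.65% and 7.71% of all genes. The median was 0.19, and 3 were called. Without the mice low in B cell transcripts, 1 rose and none fell, with a median of 0.24. Without the libraries with pancreas or liver transcripts, 2 rose and 1 fell, with a median of 0.14. Slc13a2, the apical carrier of citrate and other dicarboxylates, was at 146, 134, 101, 213 and 109 CPM in CD mice and at 461, 384, 447, 501 and 437 CPM in TDD mice. Each TDD mouse was above the highest CD mouse, a 3.17-fold rise (log2 fold change 1.67, standard error 0.25, q = 0.000283, edgeR). The sulfate carrier of the same family, Slc13a1, rose from 6.84 ± 2.34 to 21.4 ± 5.68 CPM (SD, n = 5, log2 fold change 1.65, q = 0.00273). The phosphate carrier Slc34a2 fell, from 642, 289.8, 906, 698 and 855 CPM in CD mice to 156, 145, 255, 295 and 79.0 CPM in TDD mice, and TDD mouse 4 lay just above CD mouse 2 (log2 fold change -1.87, q = 0.00247). S100g, which encodes the vitamin D-dependent calcium-binding protein calbindin-D9k, was low but tightly separated, at 1.54, 1.37, 1.596, 1.24 and 1.41 CPM in CD mice and 0.201, 0.252, 0.124, 0.220 and 0.459 CPM in TDD mice (-2.47, q = 2.45e-05). It changed by -2.01 with ABX as well.

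Among other carriers, Slc5a6, which takes up biotin and pantothenate, rose from 19.1 ± 2.06 to 39.9 ± 7.48 CPM without overlap (SD, n = 5, log2 fold change 1.06, q = 0.000227, edgeR, not called once TDD mouse 4 was left out, with 0.98 to 1.15 over the 10 fits). Slc28a1, a nucleoside carrier, changed by 1.07 (q = 0.043, not called once CD mouse 2, 3, 4 or 5, or TDD mouse 2, 3, 4 or 5 was left out, with 0.89 to 1.33 over the 10 fits). Bco1, which cleaves beta-carotene, changed by -2.19 (q = 0.0489, not called once CD mouse 1 or 3, or any TDD mouse was left out, with -2.49 to -0.97 over the 10 fits), but CD mouse 3 alone was at 85.2 CPM while CD mice 2, 4 and 5 were at 5.23 to 7.62 CPM and TDD mice at 2.81 to 9.94 CPM. Abcb1a, the drug efflux pump, rose from 127 ± 18.02 to 364 ± 55.3 CPM (SD, n = 5, log2 fold change 1.52, q = 0.000162) and changed by 1.15 with ABX. Of 21 peptide and amino acid transporters, 3 rose and 1 fell at q under 0.05. Slc6a18, a carrier of neutral amino acids best known from kidney, was called, at 0.140 to 0.276 CPM in CD mice and 0.828, 0.756, 0.891, 2.12 and 0.697 CPM in TDD mice (2.34, q = 0.000362), of which TDD mouse 4 was the highest. Of 12 brush border peptidases, which cut peptides before uptake, 2 rose at q under 0.05, Enpep (0.63, q = 0.0106) and Dpp4 (0.53, q = 0.0227), and none was called.

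Amino acid enzymes changed in both directions, with Aldh18a1 and Oat lower and Aldh1l2, Psat1 and Trib3 higher. Aldh18a1, which makes the proline and ornithine precursor from glutamate, was at 381, 292, 437, 296 and 375 CPM in CD mice and at 124, 171, 145, 138 and 142 CPM in TDD mice, without overlap (log2 fold change -1.30, standard error 0.13, q = 1.04e-05, edgeR). Oat, ornithine aminotransferase, fell from 1617 ± 50.5 to 871 ± 60.1 CPM (SD, n = 5, log2 fold change -0.89, q = 1.47e-06), also without overlap. With ABX these genes changed by -0.33 and -0.28. The diet effect on Oat differed between SPF and ABX-treated mice by -0.62 (interaction q = 0.0496, edgeR), and that on Aldh18a1 by -0.97 (q = 0.0604). Of 24 genes of the urea cycle, proline, ornithine and citrulline, 4 rose (7 without CD mouse 2) and 3 fell at q under 0.05, with a median of 0.12.

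Of 26 tested serine, glycine, methionine and one-carbon genes, 5 rose at q under 0.05 (8 without TDD mouse 1) and none fell, and 3 were called. Aldh1l2, the mitochondrial folate enzyme, was at 1.74, 2.54, 1.54, 2.13 and 1.64 CPM in CD mice and 2.51, 7.20, 14.9, 11.9 and 6.90 CPM in TDD mice, where TDD mouse 1 was at the level of CD mouse 2 and the others stood above it (log2 fold change 2.18, q = 0.00059, edgeR). Psat1 of serine synthesis rose by 1.13 (q = 0.00312) and the glycine methyltransferase Gnmt by 1.10 (q = 0.0218, not called once CD mouse 3, 4 or 5 was left out, with 0.98 to 1.31 over the 10 fits). ATF4 is the transcription factor of the amino acid stress response, and 25 of its targets were tested, Aldh1l2 and Psat1 among them. Of the 25, 6 rose and 3 fell at q under 0.05, with a median of 0.36. Trib3, a pseudokinase induced by ATF4, rose from 10.3 ± 2.10 to 23.9 ± 3.55 CPM without overlap (SD, n = 5, log2 fold change 1.22, q = 0.00131). Asparagine synthetase, Asns, chosen for mention after its values were seen, rose from 14.9 ± 3.66 to 29.3 ± 8.45 CPM (SD, n = 5, log2 fold change 0.97, q = 0.00756). Chac1, a glutathione-degrading target of ATF4, had the opposite sign (-1.78, q = 0.0477, called in 1 of the 10 fits, -1.95 to -1.42). Among 20 aminoacyl-tRNA synthetases, which charge tRNAs, 3 fell and none rose at q under 0.05, led by Cars (21.6 ± 2.48 to 12.8 ± 1.59 CPM, SD, n = 5, log2 fold change -0.75, q = 0.00658). The tyrosine enzyme Yars changed by -0.38 (q = 0.026).

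Of 25 tested genes of Trp, kynurenine, serotonin and NAD metabolism, 3 rose and 3 fell at q under 0.05, with a median of 0.06, and Ido1, which opens the kynurenine pathway, was the 1 gene called (-1.42, q = 0.0157, edgeR, not called once CD mouse 3 was left out, with -1.66 to -1.12 over the 10 fits). Among the others, chosen for mention after their values were seen, Ddc, which makes serotonin from 5-hydroxytryptophan, went from 169 ± 28.4 to 91.4 ± 12.5 CPM (SD, n = 5, log2 fold change -0.89, q = 9.25e-05) and the serotonin transporter Slc6a4 from 79.2 ± 7.18 to 106 ± 9.21 CPM (SD, n = 5, log2 fold change 0.41, q = 0.00176). Of 11 targets of the aryl hydrocarbon receptor, 1 rose and 2 fell at q under 0.05, with a median of 0.02. The quinone reductase Nqo1 rose by 0.45 (q = 0.00946) and the receptor's repressor Tiparp fell by 0.31 on the log2 scale (q = 0.0219).

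Many genes of cholesterol synthesis rose by small amounts. Of 28 tested genes of cholesterol synthesis and uptake, 15 rose at q under 0.05, where 6.65% of all genes did, and none fell, with a median log2 fold change of 0.34. None reached 2-fold. Msmo1, a sterol demethylating enzyme, was at 41.7, 62.9, 49.4, 62.7 and 57.7 CPM in CD mice and 119, 83.9, 103, 84.8 and 92.2 CPM in TDD mice (0.81, standard error 0.12, q = 0.000234, edgeR). Hsd17b7, which reduces sterol intermediates, rose from 17.4 ± 0.696 to 23.2 ± 2.47 CPM (SD, n = 5, log2 fold change 0.42, q = 0.000733), and neither gene overlapped between diets. With the B cell marker level as a covariate, 13 of the 28 rose and the median was 0.37. Without the mice low in B cell transcripts 2 of the 28 rose, and 7 without the libraries with pancreas or liver transcripts, beside 317 and 251 of all genes.

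Of 29 tested genes of fatty acid oxidation, ketogenesis and PPAR targets, 8 fell and 1 rose at q under 0.05, against 7.71% and 6.65% of all genes, with a median of -0.12. The count that fell was 2 to 10 over the 10 fits (4 without CD mouse 5), 3 with the B cell covariate, and 1 each without the mice low in B cell transcripts and without the libraries with pancreas or liver transcripts. Acot12, a cytosolic acetyl-CoA hydrolase, was called (-1.33, q = 0.0343, edgeR), but CD mouse 2 was at 5.54 CPM against 14.4 to 23.3 CPM in TDD mice, and the call held in 3 of the 10 fits (-1.63 to -1.10). Of 21 genes of fatty acid and triglyceride synthesis, 3 fell and none rose, among them the elongases Elovl7 (-0.48, q = 0.000486) and Elovl6 (-0.57, q = 0.000771). Eci1, an isomerase of fatty acid oxidation, fell from 61.0 ± 2.98 to 44.6 ± 1.46 CPM (SD, n = 5, log2 fold change -0.45, q = 1.34e-05), without overlap. Of 25 fat absorption and chylomicron genes, 2 fell and none rose, the lipid droplet coat gene Plin2 (-0.49, q = 0.00491) and the acyltransferase Agpat2 (-0.39, q = 0.00939). G6pc, the glucose-6-phosphatase of gluconeogenesis, was at 122, 56.2, 122, 88.3 and 103 CPM in CD mice and 30.7, 44.0, 19.2, 39.7 and 20.3 CPM in TDD mice (-1.68, q = 0.00578), without overlap. Acox2, the peroxisomal oxidase that shortens bile acid precursors and branched fatty acids, was at 3.06, 1.91, 3.81, 2.89 and 2.11 CPM in CD mice and 11.3, 9.05, 14.4, 15.4 and 15.9 CPM in TDD mice. It rose 4.80-fold (2.26, q = 1.04e-05) and changed by 1.86 with ABX.

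Of 38 conjugation enzymes and carboxylesterases, which modify drugs and lipids, 8 rose and 5 fell at q under 0.05, and the 4 called were higher. Ces1g rose from 0.773 ± 0.427 to 2.63 ± 0.724 CPM (SD, n = 5, log2 fold change 1.78, q = 0.000844, edgeR) and the glutathione transferase Gsta3 from 2.99 ± 1.11 to 6.51 ± 1.29 CPM (SD, n = 5, log2 fold change 1.13, q = 0.00113), both without overlap. Ces1f (1.52, q = 0.0151) overlapped through TDD mouse 1, and Gsta2 (1.76, q = 0.0389, not called once CD mouse 2, 3, 4 or 5, or TDD mouse 3, 4 or 5 was left out, with 1.41 to 2.58 over the 10 fits) lay at or under 0.523 CPM in all mice. The Ces1 and Gsta genes have close paralogs, so reads could have been split between them. Of 26 cytochrome P450 genes, 2 rose and 2 fell at q under 0.05 and none was called, with Cyp4b1 the nearest (0.93, q = 0.00298). Of 22 arachidonic acid and eicosanoid genes 6 fell and 3 rose at q under 0.05 (2 to 7 fell over the 10 fits, 2 without CD mouse 5), with values below 0 for 15. Transcripts of the phospholipase genes Pla2g2a and Pla2g5 rose. Pla2g2a changed by 1.06 (q = 0.013, not called once CD mouse 1, or TDD mouse 1 was left out, with 0.99 to 1.12 over the 10 fits). Pla2g5 changed by 1.22 (q = 0.01, not called once TDD mouse 4 was left out, with 0.92 to 1.37 over the 10 fits). The cytosolic Pla2g4c went from 1.65, 6.54, 2.05, 3.21 and 10.5 CPM in CD mice to 0.595 to 0.766 CPM in TDD mice (-2.83, q = 0.0325). The call of Pla2g4c was lost without CD mouse 5, the highest (-2.33, q = 0.100), or any TDD mouse (-3.05 to -2.33 over the 10 fits).

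Genes known to be induced by glucocorticoids rose in part. Of 22 tested, 7 rose and none fell at q under 0.05, and 5 were called, namely Fkbp5, Zbtb16, Mt2, Mt1 and Per1, while the list's median was 0.14. Fkbp5, a chaperone of the glucocorticoid receptor, was at 21.9, 29.8, 17.9, 46.6 and 35.96 CPM in CD mice and at 194, 187, 190.3, 197 and 201 CPM in TDD mice. The TDD mice lay within a narrow range far above all CD mice (2.67, standard error 0.25, q = 8.03e-06, edgeR). Zbtb16, which encodes the transcription factor PLZF, was at 2.76, 1.93, 1.44, 2.64 and 0.779 CPM in CD mice and at 7.002, 23.7, 20.6, 34.6 and 20.7 CPM in TDD mice, with no overlap (3.49, q = 0.000843). With ABX the diet changed it by -0.78, and the difference did not pass (interaction 4.27, q = 0.0587). The metallothionein genes Mt2 and Mt1, which bind zinc and copper and respond to metals as well, rose by 2.34 and 1.36 (q = 0.002 and 0.0024), with Mt2 at 12.6, 9.86, 4.13, 26.4 and 15.6 CPM in CD mice and 97.2, 28.1, 72.9, 96.4 and 53.0 CPM in TDD mice. Klf15, another receptor target counted here under mTOR, FOXO and insulin response, was at 4.77 ± 1.55 CPM with CD and 15.2 ± 2.58 CPM with TDD without overlap (SD, n = 5, log2 fold change 1.67, q = 3.12e-05), and Socs3, an inhibitor of cytokine signalling, at 33.6 ± 9.12 and 137 ± 31.2 CPM (SD, n = 5, log2 fold change 2.03, q = 1.73e-05). The calls of Fkbp5, Zbtb16, Mt2, Mt1, Klf15 and Socs3 held whichever mouse was left out, without the libraries holding pancreas or liver transcripts, without the mice low in B cell transcripts and with B cell markers as a covariate. The study reported strong weight loss on TDD, milder in ABX-treated mice. The part of weight loss and of the hour of killing, which the sources used here do not give, was not tested for these genes.

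**Figure D3:**
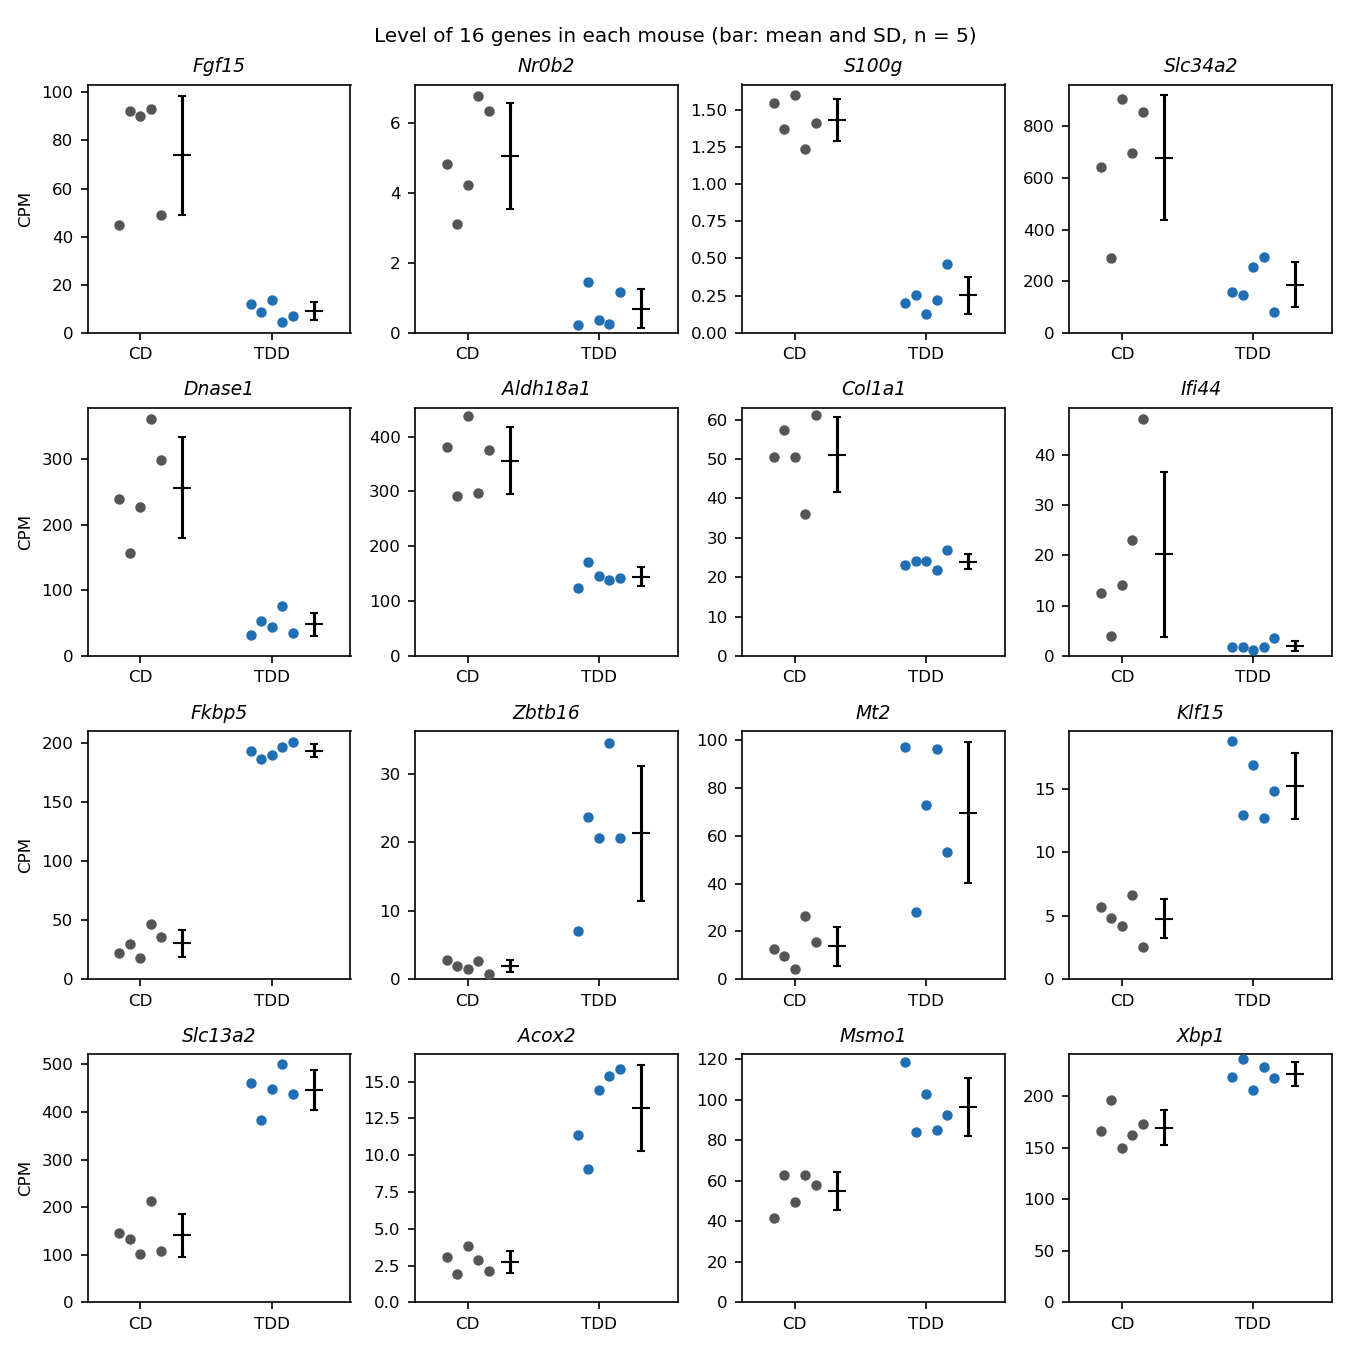
CPM of 16 genes (y axis, from 0) in each of the 5 CD mice and 5 TDD mice, with the mean and SD beside the points. The groups do not overlap in any panel other than Slc34a2, where TDD mouse 4 lies just above CD mouse 2.

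Most clock genes changed with the diet. The circadian clock is a loop in which ARNTL and CLOCK bind E-box sequences and activate Per and Cry genes, whose proteins repress them in turn, and output genes such as Dbp, while NFIL3 and the PAR factors (Dbp, Tef and Hlf) compete for D-boxes. Of 22 tested genes, 13 rose and 2 fell at q under 0.05, 9 were called higher and 2 lower, and the groups did not overlap for 13, with a median log2 fold change of 0.71. Hlf was at 4.30, 5.33, 3.91, 6.52 and 2.15 CPM in CD mice and at 41.8, 25.8, 27.3, 23.6 and 36.6 CPM in TDD mice (2.81, standard error 0.39, q = 0.000173, edgeR). Per2 rose from 14.7 ± 2.34 to 49.5 ± 7.11 CPM (SD, n = 5, log2 fold change 1.76, q = 7.25e-05), and the deubiquitinase gene Usp2 from 14.6 ± 1.79 to 37.3 ± 7.44 CPM (SD, n = 5, log2 fold change 1.36, q = 0.000103). Ciart, a repressor of the loop, had at most 0.734 CPM in CD mice and 10.8, 3.07, 2.96, 5.67 and 8.89 CPM in TDD mice (3.997, q = 0.000162). In each of Hlf, Per2, Usp2 and Ciart, CD mouse 4 was the highest of its group and TDD mouse 1 the highest TDD mouse. The hour at which each mouse was killed was not given in the sources used here, so that hour and diet cannot be told apart for these genes. This includes Per1, which is also on the glucocorticoid list.

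Promoter sequence is shown for the clock genes with matches lying wholly upstream of their annotated gene, because the list moved together. In the RefSeq promoter table (GRCm38.p6, 250 bases before to 50 after each start), the E-box CACGTG was found on either strand in 7.15% of 32851 promoters and in 4 of the 8 higher clock genes with an entry, and the D-box TTATGTAA, on either strand, in 0.938% and in 1 of 8. Capitals mark the match, and the first sequence holds a further E-box in lower case.
Ciart E-box, chr3:95882261-95882306, minus strand: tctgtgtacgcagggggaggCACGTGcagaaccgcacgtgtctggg
Ciart E-box, chr3:95882319-95882364, minus strand: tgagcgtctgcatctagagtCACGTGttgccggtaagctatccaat
Per3 D-box, chr4:151044796-151044843, minus strand: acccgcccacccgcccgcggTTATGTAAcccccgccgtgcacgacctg
Per3 D-box, chr4:151044843-151044890, minus strand: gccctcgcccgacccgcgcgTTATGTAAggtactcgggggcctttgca
The ROR element AGGTCA was found on either strand in 16.3% of all promoters, in 1 of the 8 higher genes and in both lower genes, Nfil3 and Arntl. These matches describe the letters of the window only.

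Genes of protein synthesis shifted by small and even amounts. Of 45 cytosolic ribosomal protein genes, 31 rose at q under 0.05 and none fell, with a median of 0.28, and the log2 fold change was above 0 for all 45. Of these 45, 23 rose without CD mouse 5, 3 without the libraries with pancreas or liver transcripts and 0 without the mice low in B cell transcripts, where the list's median was 0.18. Rps25 was at 210.0, 265, 215, 226 and 245 CPM in CD mice and 282, 285, 288, 294 and 293 CPM in TDD mice (0.31, standard error 0.06, q = 0.00162, edgeR), and Rpl32 changed by 0.36 (q = 0.00438). Of 27 genes of ribosome biogenesis, 2 rose, near the 6.65% of all genes, and none fell (Rrp9, 0.41, q = 0.0177, and Ncl, 0.35, q = 0.0395). The count that rose was 0 to 11 over the 10 fits. It was 0 with the B cell covariate, without the mice low in B cell transcripts and without the libraries with pancreas or liver transcripts. Of 22 genes of the unfolded protein response and chaperones of the endoplasmic reticulum, 9 rose and 1 fell, with a median of 0.22. The count that rose was 5 to 10 over the 10 fits (5 without CD mouse 5) and 3 each without the mice low in B cell transcripts and without the libraries with pancreas or liver transcripts. Summed plasma cell markers (Jchain, Igha, Mzb1 and Sdc1) went from 1872 ± 431 to 2743 ± 666 CPM (SD, n = 5), and their part in this list, which shares Xbp1 with the plasma cell list, was not tested. Herpud1 rose from 94.7 ± 13.1 to 158 ± 19.3 CPM (SD, n = 5, log2 fold change 0.74, q = 0.00276) and Xbp1, the transcription factor of this response, from 169 ± 17.1 to 221 ± 11.4 CPM (SD, n = 5, log2 fold change 0.38, q = 0.00222), both without overlap. Of 21 heat shock genes 1 fell and none rose (Hsf1, -0.29, q = 0.0394), with a median of -0.05. Of 43 nuclear respiratory chain genes, 7 fell and none rose, led by Cox6a1 (-0.42, q = 0.00593). The count that fell was 3 to 16 over the 10 fits (3 without CD mouse 5, 16 without TDD mouse 1) and 1 each without the mice low in B cell transcripts and without the libraries with pancreas or liver transcripts. None of 13 mitochondrially encoded ones passed q of 0.05 in edgeR, DESeq2 or limma-voom (3 at unadjusted p under 0.05), nearest mt-Atp8 (0.27, q = 0.11). Of 39 proliferation genes 2 fell, E2f1 (-0.38, q = 0.0233) and Mcm2 (-0.40, q = 0.0337), against 7.71% of all genes. The median was -0.29, with values below 0 for 38. None of the 39 fell at q under 0.05 without CD mouse 5 (median -0.23) or without the mice low in B cell transcripts (-0.24). The same held without the libraries with pancreas or liver transcripts (-0.35).

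**Figure D4:**
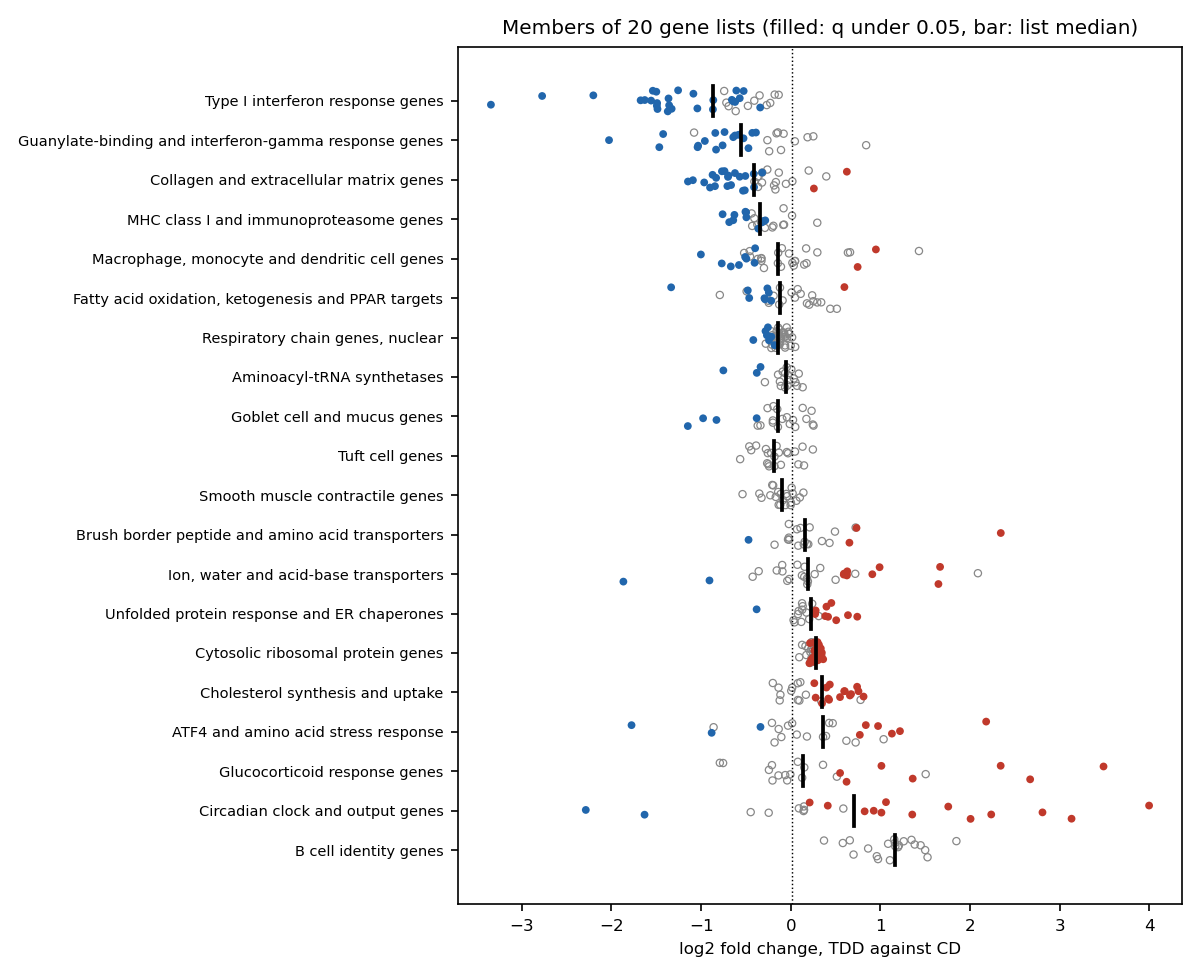
Log2 fold change of TDD against CD (x axis) for each tested member of 20 gene lists (rows), with members at q under 0.05 filled (red higher, blue lower), others open, the list median as a bar and the median of all genes as a dotted line. Ribosomal protein and cholesterol genes shift right by small amounts and collagen and interferon genes left, while the B cell list has the highest median, 1.16, with no member at q under 0.05.

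Many collagen and matrix genes fell. Of 38 tested, 21 fell and 2 rose at q under 0.05, against 7.71% and 6.65% of all genes, with a median of -0.41, and the groups did not overlap for 20, beside 9.58% of all genes. Col3a1, a fibrillar collagen, was at 196, 238, 188, 169 and 292 CPM in CD mice and 77.6, 114, 103, 89.5 and 106 CPM in TDD mice (-1.15, standard error 0.16, q = 0.000176, edgeR). Col1a1 was at 50.6, 57.4, 50.4, 36.1 and 61.0 CPM in CD mice and 23.04, 24.1, 24.0, 21.9 and 26.9 CPM in TDD mice (-1.09, q = 7.6e-05). The basement membrane collagen Col4a1 fell from 139 ± 9.64 to 78.2 ± 7.89 CPM (SD, n = 5, log2 fold change -0.83, q = 1.04e-05). With ABX, these 3 changed by -0.70, -0.73 and -0.69, and their calls or q under 0.05 held without the mice low in B cell transcripts and without the libraries with pancreas or liver transcripts. The fibroblast markers (Pdgfra, Dcn, Lum and Col1a1) summed to 171 to 292 CPM in CD mice and 153 to 192 CPM in TDD mice (means 215 ± 45.1 and 173 ± 16.7 CPM, SD, n = 5), with Dcn at 90.9 ± 31.1 and 80.8 ± 9.61 CPM (SD, n = 5, log2 fold change -0.17, q = 0.567), and their part in the collagen genes was not tested. At q under 0.05, 2 of 24 fibroblast and telocyte genes fell, the niche signals Bmp4 (-0.32, q = 0.0137) and Wnt5a (-0.38, q = 0.0296).

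Of 18 blood endothelial genes, 2 fell at q under 0.05, the tight junction gene Cldn5 (-0.81, q = 0.00102, edgeR) and Vwf (-0.46, q = 0.00143), while endothelial markers summed to 76.8, 87.2, 80.1, 73.0 and 79.3 CPM in CD mice and 67.6, 86.1, 87.6, 90.6 and 100.3 CPM in TDD mice. Of 7 erythrocyte and platelet genes, 4 fell, all haemoglobin genes, beside 7.71% of all genes, with a median of -0.96. None of the 7 fell at q under 0.05 without the libraries with pancreas or liver transcripts (median -0.91). Without the mice low in B cell transcripts 4 fell. Hbb-bs was at 19.3, 20.5, 18.9, 10.8 and 20.04 CPM in CD mice and 12.95, 6.17, 7.39, 9.80 and 7.496 CPM in TDD mice (-1.03, q = 0.00901, not called once CD mouse 2 or 5, or TDD mouse 2, 3 or 5 was left out, with -1.22 to -0.93 over the 10 fits), and Hbb-bt changed by -1.22 (q = 0.0134). CD mouse 4 was the lowest of its group and overlapped the TDD mice. Haemoglobin transcripts are those of red blood cells. The iron exporter gene Slc40a1 fell from 12.01 ± 1.83 to 7.65 ± 0.479 CPM (SD, n = 5, log2 fold change -0.65, q = 0.00131).

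Interferon-responsive genes fell most broadly of the immune lists. Of 38 genes of the type I interferon response, 27 fell at q under 0.05, none rose and 18 were called, against 0.993% called lower over all genes, and the median was -0.87. The groups did not overlap for 2 of the 38, Ifi44 and Ifi27l2a, beside 9.58% of all genes (4.9% lower on TDD). Ifi44 was at 12.6, 4.02, 14.1, 23.1 and 47.1 CPM in CD mice and 1.71, 1.81, 1.12, 1.68 and 3.54 CPM in TDD mice (-3.34, standard error 0.49, q = 0.000254, edgeR). Ifi27l2a was at 7.66, 9.05, 8.98, 15.3 and 37.3 CPM in CD mice and 3.99, 4.29, 2.09, 2.59 and 4.06 CPM in TDD mice (-2.20, q = 0.000581). Bst2, which tethers virus particles to the cell surface, fell from 24.0 ± 11.7 to 9.53 ± 1.94 CPM (SD, n = 5, log2 fold change -1.33, q = 0.00147), with CD mouse 2 at 12.2 CPM and TDD mouse 5 at 12.5 CPM. Without the 4 mice low in B cell transcripts, which leaves CD mice 2 and 3, Bst2 changed by -0.84 (q = 0.0518), whereas Ifi44 changed by -2.15 (q = 0.0199). With B cell markers as a covariate 18 of the 38 fell, and 16 fell without CD mouse 5. Of the 38, 12 fell without the libraries with pancreas or liver transcripts and 2 without the mice low in B cell transcripts, where the median was -0.53.

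The interferon-stimulated response element, searched as GAAANNGAA on either strand, was found in 8.56% of the 32851 promoters, and in 10 of the 12 called interferon genes that have a RefSeq entry. It often came in overlapping copies. A window upstream of the gene is shown for Bst2 and, chosen after their values were seen, for Isg15 and Ifit1, with 1 match in capitals. The last of these is written as the opposite strand of the motif.
Bst2, chr8:71537568-71537616, minus strand: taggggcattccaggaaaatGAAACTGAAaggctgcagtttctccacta
Isg15, chr4:156200862-156200910, minus strand: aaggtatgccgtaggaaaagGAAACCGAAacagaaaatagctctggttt
Ifit1, chr19:34640785-34640833, plus strand: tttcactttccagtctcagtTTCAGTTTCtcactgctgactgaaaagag
Isg15 changed by -1.49 (q = 0.0116) and Ifit1 by -1.36 (q = 0.031, edgeR, not called once CD mouse 3, 4 or 5, or TDD mouse 2, 3 or 4 was left out, with -1.63 to -1.12 over the 10 fits), both with CD mouse 2 as the lowest CD mouse.

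Among guanylate-binding and interferon-gamma response genes, 17 of 28 fell at q under 0.05, none rose and 5 were called, with a median of -0.55. Gbp6, a GTPase that attacks intracellular microbes, was at 27.1, 11.7, 30.7, 37.1 and 51.2 CPM in CD mice and 7.20, 7.59, 6.13, 7.21 and 10.5 CPM in TDD mice, without overlap (-2.03, q = 0.000115, edgeR). Gbp3 (-1.03, q = 0.000185), Ifi47 (-1.04, q = 0.00113) and Igtp (-1.47, q = 0.00135) followed, and the calls of Gbp3 and Ifi47 were lost at the fold limit without CD mouse 5 (-0.88 and -0.85), TDD mouse 3 or, for Gbp3, TDD mouse 4 (ranges -1.14 to -0.88 and -1.18 to -0.85 over the 10 fits). Without the mice low in B cell transcripts, 4 of the 28 fell. The activation site TTCNNNGAA was in 8.3% of all promoters and in 1 of the 3 called genes of this list with an entry, Igtp. Of 24 genes of MHC class I and the immunoproteasome, which cut and present peptides to CD8 T cells, 11 fell and none rose, led by Psmb9 (40.3 ± 9.56 to 23.8 ± 4.04 CPM, SD, n = 5, log2 fold change -0.76, q = 0.00129) and H2-T10 (-0.63, q = 0.00421). The count that fell was 4 to 16 over the 10 fits (4 without CD mouse 5) and 2 each without the mice low in B cell transcripts and without the libraries with pancreas or liver transcripts. Of 13 MHC class II genes, 2 fell, H2-DMa (-0.50, q = 0.00233) and H2-Ab1 (-0.47, q = 0.0178), and 6 did with B cell markers as a covariate. Of 22 complement and coagulation genes, 6 fell and none rose, with C2 called at the fold limit (-1.004, q = 0.00538, not called once CD mouse 4 or 5, or TDD mouse 3 or 5 was left out, with -1.12 to -0.79 over the 10 fits). Of 33 Toll-like, NOD and inflammasome genes, 5 fell and 1 rose. Casp1, the inflammatory caspase, fell from 164 ± 10.5 to 113 ± 11.3 CPM (SD, n = 5, log2 fold change -0.53, q = 2.78e-05), and Birc3, an inhibitor of cell death signalling, rose from 39.0 ± 3.83 to 65.3 ± 5.96 CPM (SD, n = 5, log2 fold change 0.75, q = 1.04e-05), both without overlap.

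The epithelial cell types changed in a few of their products. The Paneth markers (Lyz1, Defa24, Mmp7, Itln1 and Ang4) summed to 10903 ± 2317 CPM with CD and 11922 ± 1069 CPM with TDD, the goblet markers (Muc2, Fcgbp, Clca1, Zg16 and Tff3) to 8455 ± 970.4 and 6618 ± 802 CPM, and the stem cell markers (Lgr5, Olfm4, Smoc2 and Ascl2) to 657 ± 125 and 564 ± 108 CPM (SD, n = 5), with no test on these sums. Lyz1 (0.07, q = 0.853, edgeR), Muc2 (-0.19, q = 0.426) and Lgr5 (-0.09, q = 0.714) were not past the threshold, while the matrix protease gene Mmp7, which Paneth cells use to activate defensins, rose by 0.84 (q = 0.0184; 75.6 to 130.4 CPM in CD mice and 125 to 239 CPM in TDD mice). Clca1, a goblet cell product that shapes mucus, fell, at 1461 ± 167 CPM with CD and 742 ± 143 CPM with TDD without overlap (SD, n = 5, log2 fold change -0.98, q = 0.000619). Of 22 goblet cell and mucus genes 4 fell and none rose (2 to 5 fell over the 10 fits, 2 without CD mouse 5), and the kallikrein Klk1 was called (44.9 ± 11.3 to 20.3 ± 3.24 CPM, SD, n = 5, log2 fold change -1.15, q = 0.00232). Of 22 Paneth cell products, 4 rose and 2 fell (2 to 5 rose over the 10 fits). Without the mice low in B cell transcripts 0 rose and 1 fell. Without the libraries with pancreas or liver transcripts 1 rose and 0 fell. Mptx1, a mucosal pentraxin, fell (-1.42, q = 0.00331). Transcripts of the phospholipase gene Pla2g2a rose from 18.8 ± 2.60 to 39.2 ± 6.10 CPM (SD, n = 5), and whether these C57BL/6 mice make working enzyme was not tested. None of 22 tuft cell genes passed q of 0.05 in edgeR, DESeq2 or limma-voom (2 at unadjusted p under 0.05), with Trpm5 nearest (-0.44, q = 0.119) and a median of -0.18. Of 28 enteroendocrine genes 3 rose (0 to 4 over the 10 fits), beside 6.65% of all genes, and 1 fell. Among those that rose were the endocrine factors Neurod1 (0.44, q = 0.0154) and Pax6 (0.38, q = 0.022). None of the 28 rose or fell without the mice low in B cell transcripts, where the median was -0.01. The same held without the libraries with pancreas or liver transcripts (median 0.12). Of 27 crypt stem cell and Wnt genes 1 rose and 2 fell, with Bmi1 at 0.19 (q = 0.00781) and Ly6a at -0.51 (q = 0.015).

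Of 21 antimicrobial lectins and acute defence genes, 3 rose and 3 fell, and 2 were called in each direction. Reg1 (-1.38, q = 0.00209, edgeR) and Lypd8, which keeps flagellated bacteria from the epithelium (1327 ± 505 to 661 ± 151 CPM, SD, n = 5, log2 fold change -1.01, q = 0.00361, not called once CD mouse 5, or TDD mouse 1, 3 or 5 was left out, with -1.13 to -0.77 over the 10 fits), fell. Reg3b, a bactericidal lectin, was at 760.2, 1064, 649.7, 636 and 742 CPM in CD mice and at 3197, 2353, 577, 7583 and 519 CPM in TDD mice (1.88, q = 0.039). Nos2, the inducible nitric oxide synthase, was at 2.12, 6.54, 3.85, 2.09 and 1.62 CPM in CD mice and 5.72, 8.11, 21.6, 76.1 and 2.26 CPM in TDD mice (2.80, q = 0.0137). In both, TDD mouse 4 was by far the highest, while TDD mice 3 and 5 lay below every CD mouse for Reg3b and TDD mice 1 and 5 lay among the CD mice for Nos2. Both calls were lost without TDD mouse 4, and that of Reg3b also without 6 other mice (1.11 to 2.15 over the 10 fits; 1.54 to 3.21 for Nos2). The surface glycan enzymes Fut4 and Gcnt3 rose (18.8 ± 2.61 to 37.3 ± 3.83 CPM and 35.0 ± 3.02 to 63.0 ± 13.1 CPM, SD, n = 5, log2 fold change 0.99 and 0.85, q = 0.000229 and 0.00157), without overlap.

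Several further genes fell by more than 2-fold. Dnase1, a secreted nuclease, was at 239, 156, 226, 361 and 298 CPM in CD mice and 32.3, 53.5, 44.0, 75.4 and 35.3 CPM in TDD mice (-2.41, standard error 0.26, q = 2.31e-05, edgeR). Alppl2, an alkaline phosphatase, fell from 7.16 ± 2.20 to 1.15 ± 0.154 CPM (SD, n = 5, log2 fold change -2.63, q = 1.04e-06), and Pnp2, a purine nucleoside phosphorylase, from 110.1 ± 22.9 to 48.2 ± 6.27 CPM (SD, n = 5, log2 fold change -1.19, q = 9.21e-05). The apolipoprotein L gene Apol10b fell as well (24.7 ± 6.04 to 5.49 ± 0.956 CPM, SD, n = 5, log2 fold change -2.17, q = 9.38e-07), and its relative Apol10c-ps changed by -2.59. Of 23 gasdermin and cell death genes 8 fell and 1 rose, and the 4 called were the gasdermin C paralogs, whose reads could have been split. Gsdmc2 was at 18.8, 44.5, 18.6, 31.7 and 74.7 CPM in CD mice and 4.72, 6.28, 1.97, 5.04 and 1.94 CPM in TDD mice (-3.26, q = 0.000939). Alppl2, Dnase1, Pnp2, Apol10b, Apol10c-ps and Gsdmc2 did not overlap between diets and were called whichever mouse was left out.

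Leukocyte genes differed by cell type. Of 34 macrophage, monocyte and dendritic cell genes 8 fell and 2 rose at q under 0.05, with a median of -0.14. The macrophage markers Adgre1, Csf1r, C1qb, Cd68 and C1qa all fell (-0.77, -0.58, -0.51, -0.50 and -0.40, largest q = 0.0193, edgeR), and their summed level was 146, 158, 145, 148 and 184 CPM in CD mice and 82.7, 122, 102, 114 and 127 CPM in TDD mice. Every TDD mouse was below every CD mouse in that sum. Adgre1, which encodes F4/80, was at 8.65, 8.40, 8.24, 9.13 and 10.8 CPM in CD mice and 3.61, 6.35, 5.80, 4.76 and 5.95 CPM in TDD mice. The 2 that rose, chosen for mention after their values were seen, were Cd163 (0.95, q = 0.00583) and Mertk (0.75, q = 0.00773), receptors for haemoglobin and for dying cells. Without the mice low in B cell transcripts, 1 of the 34 rose and 1 fell. Cd209a, a dendritic cell lectin, was called at the fold limit (-1.002, q = 0.00553, not called once CD mouse 1 or 2, or TDD mouse 1 or 5 was left out, with -1.13 to -0.88 over the 10 fits).

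Of 33 cytotoxic and intraepithelial lymphocyte genes, 5 fell and 3 rose (3 to 10 fell over the 10 fits, 3 without CD mouse 5), and the 4 called were lower. Cd8b1, the beta chain of CD8, was at 2.01, 1.63, 2.11, 6.26 and 10.4 CPM in CD mice and 0.151, 0.871, 0.746, 1.21 and 1.43 CPM in TDD mice (-2.33, q = 0.00838, edgeR), and CD mice 4 and 5 were far above CD mice 1 to 3. The granule gene Nkg7 showed the same mice on top, at 2.76, 2.26, 2.03, 5.76 and 8.34 CPM in CD mice and 1.47 to 2.18 CPM in TDD mice (-1.21, q = 0.0125), and was not called without CD mouse 5 (-0.82). Without the mice low in B cell transcripts, which include CD mice 4 and 5, Cd8b1, Nkg7 and the chemokine Ccl5 (-1.64, q = 0.017; not called without CD mouse 5, -1.13) changed by -0.81, -0.30 and -0.09 (q = 0.328, 0.468 and 0.865). Gzmk, at 1.27, 1.21, 0.618, 5.51 and 8.17 CPM in CD mice and 0.351, 0.298, 0.186, 0.220 and 0.357 CPM in TDD mice (-3.55, q = 0.000429), still changed by -1.75 (q = 0.0151). The chemokine receptor gene Cxcr6 was called at the fold limit (-1.003, q = 0.0108, not called once CD mouse 4 or 5, or TDD mouse 1 or 4 was left out, with -1.16 to -0.68 over the 10 fits). The T cell markers (Cd3e, Cd3d, Cd3g and Trac) summed to 19.6, 17.4, 19.3, 30.5 and 49.6 CPM in CD mice and 13.8, 18.5, 17.8, 22.3 and 22.9 CPM in TDD mice. Of 25 T cell genes 17 had values below 0, with a median of -0.34. At q under 0.05, 3 rose and none fell (1 without CD mouse 5 and 0 without the mice low in B cell transcripts), among them Il7r (0.64, q = 0.0182) and Trdc, the constant segment of the delta chain (0.59, q = 0.0195). Of 20 regulatory T cell genes, Il2ra rose (1.18 ± 0.346 to 2.25 ± 0.540 CPM, SD, n = 5, log2 fold change 0.93, q = 0.00778), and Foxp3, at 0.248, 0.326, 0.559, 0.161 and 0.168 CPM in CD mice and 0.151, 0.779, 0.684, 1.05 and 0.816 CPM in TDD mice, did not pass (1.23, q = 0.0691, called in 2 of the 10 fits). Foxp3 was lowest in TDD mouse 1, the TDD mouse low in B cell transcripts, and changed by 0.54 with B cell markers as a covariate (q = 0.293).

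B cell genes had the highest median of all lists, 1.16, yet none of 21 passed q of 0.05, and both diets held mice with few B cell transcripts. Of the 21, 1 was under 0.05 by unadjusted p, and 1 each by q in DESeq2 and limma-voom. Ebf1, a B cell transcription factor, was nearest (0.86, q = 0.0606, edgeR). With the covariate, the list's median was close to 0, where the covariate itself is made of 5 B cell markers. Of 18 genes of follicle stroma and M cells, 15 had values above 0, with a median of 0.74 (-0.04 with the covariate). None rose and 2 fell at q under 0.05, the survival factor Tnfsf13b (-0.57, q = 0.0337) and Tnfrsf11a, the RANK receptor that M cell formation needs. Tnfrsf11a was at 49.0, 40.6, 51.5, 50.4 and 50.2 CPM in CD mice and 28.9, 26.4, 25.9, 34.1 and 25.1 CPM in TDD mice, without overlap (-0.79, q = 1.5e-05). Of 23 IgA plasma cell genes 4 rose and none fell (2 to 9 rose over the 10 fits, 2 without CD mouse 5), with a median of 0.49 (0.17 with the covariate). With the covariate 2 of the 23 rose. None rose without the mice low in B cell transcripts (median 0.42) or without the libraries with pancreas or liver transcripts (median 0.33). Jchain, which joins IgA dimers, rose from 303 ± 79.7 to 480.1 ± 122 CPM (SD, n = 5, log2 fold change 0.66, q = 0.027) and Derl3 by 0.82 (q = 0.0082), whereas Igha was at 1487 ± 348 and 2173 ± 547 CPM (SD, n = 5, log2 fold change 0.55, q = 0.0718). Of 193 immunoglobulin gene segments tested, 19 were called higher and 3 lower, against 0.834% and 0.993% of all genes. Their near-identical copies make single segments uncertain. B cell and plasma cell transcripts differed between mice, and their part in these calls was not tested. No germinal centre gene of 17 and no neutrophil gene of 8 passed q of 0.05 in edgeR, DESeq2 or limma-voom (1 and 2 at unadjusted p under 0.05), and 1 of 7 mast cell genes did (Gata2, 0.55, q = 0.0297), as did 1 of 13 type 2 and ILC2 genes, Ccl24, which was called (-1.14, q = 0.0243, not called once CD mouse 3 or 4, or TDD mouse 3 or 5 was left out, with -1.28 to -0.98 over the 10 fits).

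Smooth muscle genes did not pass the test, and few genes of nerves and glia did. None of 22 smooth muscle contractile genes passed q of 0.05 in edgeR, DESeq2 or limma-voom, nor an unadjusted p of 0.05, nearest Casq2 (-0.54, q = 0.347, edgeR), although smooth muscle markers ranged from 283 to 1652 CPM between mice. Of 25 enteric neuron genes 2 rose and 1 fell. The neuropeptide gene Npy was called, at 0.551, 1.93, 0.618, 0.505 and 0.968 CPM in CD mice and 0.552, 0.367, 0.269, 0.385 and 0.255 CPM in TDD mice (-1.33, q = 0.0254, not called once CD mouse 2, or TDD mouse 3 or 5 was left out, with -1.53 to -0.87 over the 10 fits). Of 15 glial genes Cdh19, a cadherin of Schwann cells, was called at the fold limit (1.0, q = 0.0203, not called once CD mouse 3 or 5, or TDD mouse 1, 2 or 3 was left out, with 0.83 to 1.14 over the 10 fits). Of 15 adipocyte and mesentery genes, Pparg, which enterocytes express as well, rose from 6.68 ± 1.61 to 11.7 ± 1.49 CPM (SD, n = 5, log2 fold change 0.80, q = 0.00353), while Lpl changed by -0.93 (q = 0.147). Of 8 lymphatic genes 1 rose (Reln, 0.55) and 1 fell (Pdpn, -0.60; q = 0.0152 and 0.00656). No colon-type gene of 10 and no pericyte gene of 6 passed q of 0.05 in edgeR (2 and 0 at unadjusted p under 0.05; 1 colon-type gene in DESeq2).

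Other genes with low q had varied roles. Rbm3, a cold-inducible RNA-binding protein, was at 128, 141, 100, 128 and 122 CPM in CD mice and 262, 232, 244, 239 and 257 CPM in TDD mice, just under 2-fold (0.99, q = 1.15e-05, edgeR). Cpq, a plasma carboxypeptidase, fell from 18.4 ± 1.88 to 10.7 ± 0.717 CPM (SD, n = 5, log2 fold change -0.79, q = 1.04e-05). Tafa3, a chemokine-like secreted protein, rose from 1.28 ± 0.456 to 5.06 ± 1.15 CPM (SD, n = 5, log2 fold change 1.99, q = 3.56e-05), and Clec2e, a C-type lectin, from 229.9 ± 31.4 to 488 ± 108 CPM (SD, n = 5, log2 fold change 1.09, q = 0.000131, not called once TDD mouse 1 was left out, with 0.94 to 1.16 over the 10 fits). Mbl2, a mannose-binding lectin of complement, was at 6.83, 8.54, 10.5, 8.83 and 5.35 CPM in CD mice and 11.7, 41.0, 49.7, 26.4 and 21.4 CPM in TDD mice, without overlap (1.91, q = 0.0161). With ABX the diet changed Mbl2 by -1.36, and the difference did not pass the test (interaction 3.26, q = 0.0981). The glycolysis regulator Pfkfb3 rose from 49.3 ± 18.8 to 105 ± 18.6 CPM (SD, n = 5, log2 fold change 1.09, q = 0.00876, not called once CD mouse 2 or 5, or TDD mouse 2 was left out, with 0.93 to 1.24 over the 10 fits), in a list of 26 glycolysis and hypoxia genes of which 6 rose and 2 fell. The remaining lists were as follows, beside 6.65% of all genes that rose and 7.71% that fell. Of 23 glutathione and antioxidant genes 1 rose and 5 fell (3 to 7 over the 10 fits) at q under 0.05, of 18 iron, haem and metal genes 2 rose and 6 fell, of 19 sugar genes 2 rose and 1 fell, of 22 surface glycan genes 2 rose and 3 fell, and of 26 autophagy and lysosome genes 2 rose and 1 fell. Of 15 type 17 lymphocyte genes 1 rose and 2 fell, of 21 immediate early genes 1 rose, of 16 villus tip genes 2 fell, and of 20 keratin and epithelial structure genes 1 rose and 1 fell.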

How the data were processed

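Ileal RNA of 20 mice was sequenced, and the 10 mice fed CD or TDD without ABX are described. The authors quantified transcripts with kallisto (version 0.44.0 per the submitters' processing notes) and deposited a gene table of estimated counts and a transcript table of estimated counts and TPM. Of 12639 genes with at least 50 counts in every mouse, the gene value lay within 5% of the transcript sum for 12472 and within 5% of 2 times that sum for 141. Paralogs share reads, and kallisto divides these by estimate.

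Estimated counts were rounded, genes with 0.5 CPM in at least 1 of 20 mice were kept, and the 4 groups were fitted together with TMM scaling in edgeR 4.0.16 (robust quasi-likelihood, R 4.3.3), contrasting TDD with CD. The study names no test for this step. CPM use these library sizes, and 3 counts were taken as the floor. Total counts had a median of 45529527 in CD mice and 43561216 in TDD mice. On simulated counts, the fit recovered 86% of 100 genes changed 2-fold and 98% of 100 changed 4-fold at q under 0.05, over 16077 genes, for TDD against CD. Genes of low level were not among those changed. The simulated mice shared a common mean for each gene apart from these changes, without libraries that held stray tissue or differed in cell content. Recovery in the data may therefore be lower. Alternatives used limma 3.58.1, DESeq2 1.42.0, other scalings and filters, summed TPM as log2(TPM + 1), and 1 mouse left out at a time. Tables were made with Python 3.11.15 and pandas 2.3.3.

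Genes were named by rule. The rule takes the up to 4 called members of each list with the lowest q or, with none called, its 2 lowest q. It adds the 12 highest and 12 lowest fold changes among called genes whose mice do not overlap and which reach 5 CPM, the 8 largest rises and falls in TPM, and the 12 lowest q. Members and lists were chosen with earlier results of these data known. Genes outside the rule are cell type markers or are said to be chosen after their values were seen. A gene among the markers is not reported here and was left out of the marker sums and lists.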

Additional observations from a re-analysis of the deposited data

Results flagged for a closer look

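In groups of 5 mice, a single mouse was set apart by Dixon's test (critical value 0.71) in 16 of 236 groups, where chance gives about 1 in 20. CD mouse 5 was the high one in 7 of them. It held the exocrine pancreas transcripts Amy2a5 at 27.5 CPM, Cel at 17.8 CPM, Cela2a at 34.1 CPM and Ctrb1 at 34.4 CPM, and the summed pancreas markers at 102.7 CPM, and it was also the highest for Gsdmc at 0.905 CPM and Ifi27l2a at 37.3 CPM. Among the other CD mice, mouse 1 was highest for Gsta3 at 4.90 CPM, mouse 3 highest for Bco1 at 85.2 CPM, mouse 2 lowest for Pnp2 at 70.0 CPM and mouse 4 lowest for Hbb-bs at 10.8 CPM. Among TDD mice, mouse 1 was highest for Clec2e at 677 CPM and lowest for summed dendritic cell markers at 8.61 CPM, mouse 4 was highest for Nos2 at 76.1 CPM and Slc6a18 at 2.12 CPM, and mouse 5 was highest for Ifi44 at 3.54 CPM.

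The diet effect differed between SPF mice and ABX-treated mice in edgeR's interaction test for 4 of the named genes, each at q = 0.0496. On the log2 scale the effect without ABX minus that with ABX was -5.01 for Chac1, 1.92 for Fkbp5, -4.98 for Gzmk and -0.62 for Oat. Gzmk was highest in CD mice 4 and 5, the mice with the highest cytotoxic lymphocyte markers, and their part in this difference was not tested.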

How the results depend on the processing

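Calls numbered 298, with 290 to 294 under other scalings, 314 in DESeq2, 265 in limma-voom, 250 with the filter in at least 5 mice, 302 with none and 231 when CD and TDD groups were fitted alone, where 1391 genes had q under 0.05 instead of 2342 (the count with no fold limit). Limma on summed TPM called 140 genes, 57 higher and 83 lower. Leaving out 1 mouse at a time gave 215 (without CD mouse 5) to 360 calls (without CD mouse 2), 102 to 170 higher and 113 to 190 lower, and 1576 to 3098 genes with q under 0.05.

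The following fits were chosen after seeing the data. Without CD mice 1, 4 and 5 and TDD mouse 1, 162 genes were called, 85 higher and 77 lower, and 651 had q under 0.05. Without CD mouse 5, TDD mice 4 and 5 and CD+ABX mice 1 and 2, 141 were called, 63 higher and 78 lower, and 634 had q under 0.05. Both rest on fewer mice. With the B cell covariate 234 were called.

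With the replicate block, CD and TDD groups alone, 177 genes were called, 91 higher and 86 lower, and 737 had q under 0.05. Nothing in the labels says that a number pairs mice, same-numbered mice correlated by 0.26, 0.13, 0.04, -0.06 and -0.03 in their deviations, and only number 1 correlated best with its own number.

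Of 1943 values of the 89 named called genes under 22 alternatives, 1615 kept the call, 328 lost it and none reversed, and 32 of the 89 genes kept it throughout. Of 89 named genes not called, 9 were called under some alternative. Kcnj8 (-0.46, q = 0.577) and Pdcd1 (0.16, q = 0.886), neither called, changed sign without CD mice 1, 4 and 5 and TDD mouse 1. The cause was not tested. At this depth, genes under the floor of 3 counts cannot be compared.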

Other observations

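Among ABX-treated mice, with control mice of their own, 255 of the 298 called genes had the same sign of the TDD effect. The share of same-signed genes among all genes tested was not computed. For 157 of the 298, edgeR's interaction test gave an unadjusted p under 0.05, and that share among all genes tested was not computed. The 298 were selected by the TDD effect without ABX, which is part of the interaction, so this count can be raised by the selection. List medians of the log2 fold change with ABX were 0.57 for clock genes, 0.33 for cholesterol synthesis, 0.20 for ribosomal proteins, -0.34 for collagen and matrix genes and -0.39 for type I interferon response genes, beside 0.71, 0.34, 0.28, -0.41 and -0.87 without ABX. The list of the unfolded protein response, which had a median of 0.22 without ABX, had one of -0.18 with ABX. The sign of the median also differed for T cell genes (-0.34 without ABX, 0.33 with ABX) and Paneth cell products (0.14 and -0.29). The differences between these medians were not tested.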
